A study of Mus musculus with 82 samples.

Results

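Plasma cells cut by laser from oil granulomata 33 days after pristane were compared with undissected sections of the same kind of tissue in the first of 2 cohorts, called study 1. The arrays were chosen by their labels: 5 arrays of captured cells and 3 arrays of whole granuloma, 8 of the 82 arrays of the series. All mice were BALB/c animals carrying the iMycEμ transgene, at least 8 weeks old, and all had received 0.5 ml of pristane into the peritoneum, so the series holds no untreated and no transgene-free group. The captured cells, which the labels name as early tumor cells of the plasma cell lineage, had been picked as positive for methyl green pyronin, a stain for RNA-rich plasma cells. RNA of both tissue types went through repeated linear amplification, and degraded samples had been set aside, per the labels. Captured arrays came from specimen code 5 (2 arrays), code 14 (2 arrays) and 1 array whose title held no code and was kept as a specimen of its own. Whole granuloma arrays came from codes 5, 14 and 16, 1 array each. Values are log2 expression levels, averaged over arrays of 1 specimen and quantile-normalized, and n = 3 specimens per tissue type. The labels do not say that specimens were separate animals, so p-values speak only for these samples. The spread behind p-values and SEs was estimated over all 53 specimen averages of the series, not over these specimens alone.

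Pristane is an oil that the peritoneum walls off in granulomata made of macrophages, fibroblasts, vessels and lymphoid cells, which attach to fat, gut and pancreas. Plasma cells in this tissue secrete antibody and can progress to plasma cell tumors. The iMycEμ transgene places Myc, a transcription factor that drives ribosome production and growth, in the immunoglobulin heavy chain locus. Plasma cell growth in these granulomata is known to depend on interleukin 6, which granuloma macrophages secrete.

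The arrays of captured and whole tissue differed in ways other than their genes. Deposited medians lay between 5.05 and 5.11 for captured and between 5.73 and 5.81 for whole arrays. The difference between the 3' and 5' control probe sets of actin and Gapdh, which grows as RNA shortens, was 4.57 ± 0.83 log2 (SD over 5 captured arrays) and 3.07 ± 0.35 (SD over 3 whole arrays). The second array of captured code 14 stood apart, with the highest 3' excess (5.73) and the lowest mean correlation with the other captured arrays (0.949). Values of its 2 arrays differed by a median of 0.451, against 0.148 for code 5. Arrays correlated at 0.938 to 0.994 within captured cells, at 0.968 to 0.987 within whole granuloma and at 0.895 to 0.949 between them. Titles of the captured arrays carry dates, which differ between specimens and between the 2 arrays of code 14, and titles of the whole arrays carry none. Tissue type and such a date cannot be told apart. All 8 arrays had high Xist (10.8 to 12.5) and low Eif2s3y (2.74 to 3.30).

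Of 8614 genes tested with limma, 1595 were higher in captured cells and 1469 lower at a Benjamini-Hochberg adjusted p under 0.05, which is 18.5% and 17.1%, or 35.6% together. At least 2-fold differences were found for 791 higher and 964 lower genes, and at least 4-fold for 36 and 156, so the largest differences were mostly decreases. The 3 captured averages lay above all 3 whole averages for 2285 genes (26.5%) and below them for 1965 (22.8%). The scaling set the split: 52.1% of calls were higher after quantile normalization, 54.4% after median centring and 7.06% on the values as deposited, where the median difference over all genes tested was −0.62 in place of 0.04. Without the second array of code 14, 1654 genes were higher and 1518 lower. Leaving out whole code 14 gave 964 higher and 940 lower. A list's share of calls is read below against 18.5% and 17.1%, and its median difference against 0.04.

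**Figure D1:**
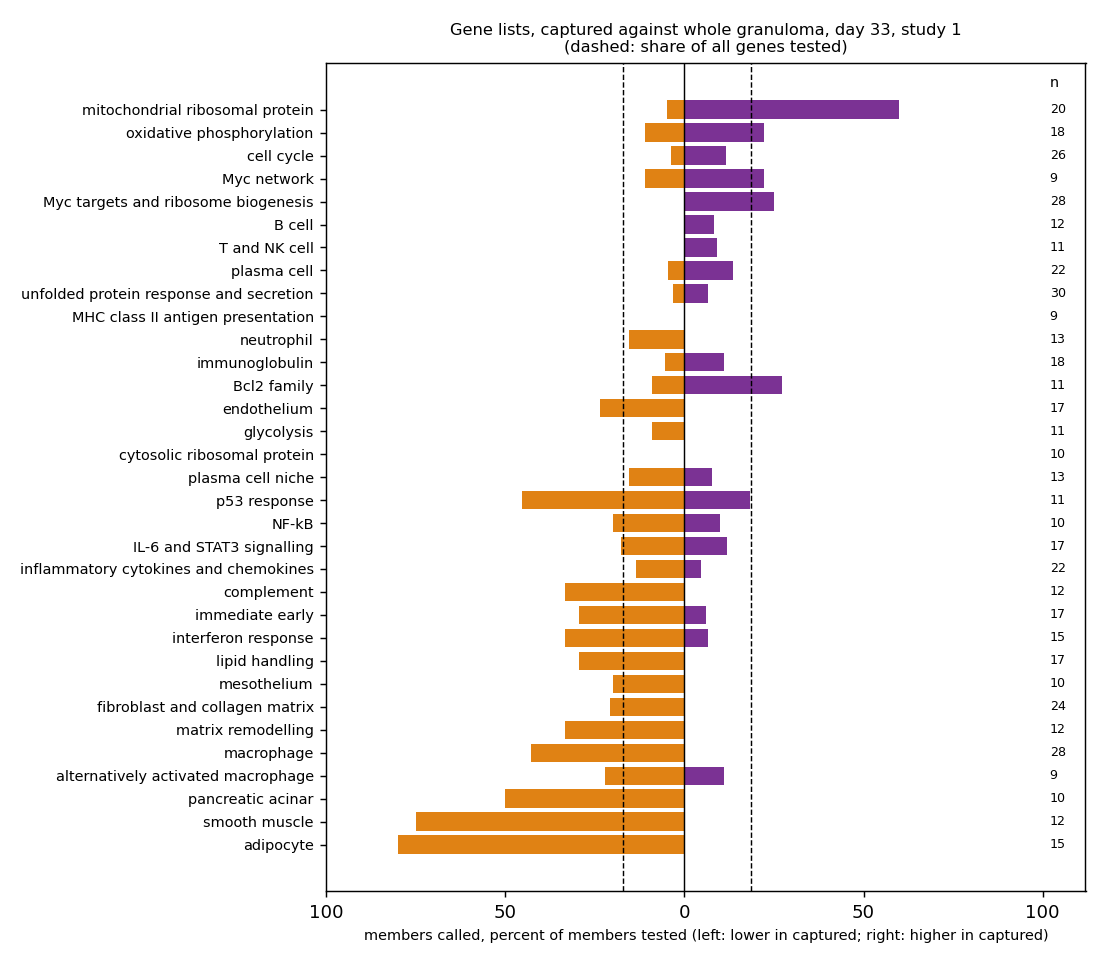
Gene lists with at least 9 members tested, ordered by median difference. Bars give the percent of tested members called lower (left) or higher (right) in captured cells, n is the number tested, and dashed lines mark 17.1% and 18.5% of all genes; adipocyte (12 of 15), smooth muscle (9 of 12) and mitochondrial ribosomal protein (12 of 20) members were called most often.

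Plasma cell genes were present in both tissue types, and few of them were higher after capture. Of 22 tested members of the plasma cell list, 3 were higher and 1 lower, with a median difference of 0.07, and on the values as deposited none was higher and 3 were lower (median −0.08 against −0.62 for all genes). Without the second array of code 14, 6 were higher and 1 lower, and without captured code 5 or whole code 14, 1 was higher and none lower. The median was 0.61 with median centring (4 higher, 1 lower) and −0.30 with the 3' minus 5' excess as a covariate (1 higher, 1 lower). Slamf7, a surface receptor of plasma cells, stood at 8.19, 7.33 and 8.19 in captured codes 5, 14 and uncoded and at 6.46, 5.94 and 6.74 in whole codes 5, 14 and 16. The groups did not overlap, and the difference was 1.52 (SE 0.33, 2.88-fold, adjusted p = 0.000449). On the deposited values it was 0.72 with an adjusted p of 0.0783. Bhlha15, a factor that enlarges the secretory apparatus, was at 10.51, 9.45 and 10.79 against 8.98, 7.57 and 9.42, a difference of 1.60 (SE 0.51, adjusted p = 0.0139). Derl3, which removes misfolded proteins from the endoplasmic reticulum, differed by 1.12 (SE 0.39, adjusted p = 0.0241). Both calls were lost when captured code 5, the uncoded captured array or whole code 14 was left out, and Derl3 also without whole code 5, with adjusted p up to 0.169 and 0.128. On the deposited values Bhlha15 was at 0.97 and Derl3 at 0.49 (adjusted p 0.132 and 0.331), and with the covariate at 0.68 and 1.08 (adjusted p 0.373 and 0.0772). Cd93, a receptor of long-lived plasma cells that myeloid and endothelial cells also carry, was lower by 1.29 (adjusted p = 0.0351), a call that was lost without any 1 of 5 averages (adjusted p up to 0.122) but kept without captured code 14.

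Several defining plasma cell genes did not pass. Sdc1, the syndecan used to sort plasma cells, was at 10.04, 9.70 and 10.42 in captured cells and 9.68, 8.64 and 9.89 in whole granuloma (difference 0.66, SE 0.29, adjusted p = 0.0686), and it passed without whole code 16 (0.88, adjusted p = 0.0276). Xbp1, the factor of the secretory program, was at 12.48, 12.19 and 12.47 against 12.40, 12.17 and 12.46 (0.04, SE 0.22). Another, dimmer Xbp1 probe set was higher in captured cells by 1.38 (adjusted p = 0.000309), so the result for Xbp1 depends on the probe set. On the probe sets whose specimen values are given here the groups overlapped for both genes. Prdm1, which ends the B cell program, differed by −0.17 (SE 0.44), and Irf4, on which plasma cell survival depends, by −0.34 (SE 0.42). Captured code 14 had the lowest Irf4 (9.26, against 10.50 and 10.43). Tnfrsf17, the receptor for the survival factors BAFF and APRIL, had separated groups with means of 5.62 ± 0.32 and 4.39 ± 0.37 (SD, n = 3) but did not pass (1.24, SE 0.53, adjusted p = 0.0648). Tnfrsf13b, the related receptor TACI, was at −0.48 (SE 0.40), and at −1.25 on the deposited values (adjusted p = 0.00801). Eaf2, a transcription elongation factor, was at 1.12 (SE 0.53, adjusted p = 0.0927). Without the second array of code 14, Tnfrsf17 and Eaf2 passed (adjusted p 0.0203 and 0.0294), as they did with codes 5 and 14 only and the code as a paired block (adjusted p 0.0127 and 0.0214). The paired block leaves 1 residual degree of freedom, here and wherever it is named below, so a call gained or lost in it is weak evidence. On the list as a whole, 6 of 22 members had captured averages above all whole averages, a share near the 26.5% of all genes.

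Markers of several cell types were summed per specimen. Summed over 8 plasma cell markers on the linear scale, captured specimens ranged from 15874 to 18858 and whole specimens from 16161 to 17213, overlapping ranges. The brightest markers, here Jchain and Xbp1, weigh most in such a sum, so it says little of the dimmer ones. Sums can be compared between tissues but not between cell types. Fibroblast markers (5) summed to 21357 to 26534 in captured and 37034 to 40233 in whole specimens. Macrophage markers (8) summed to 12745 to 25169 against 22565 to 26224, and the highest captured sum reached into the whole range. Smooth muscle markers (5) summed to 142 to 169 in captured against 1233 to 3660 in whole specimens, and adipocyte markers (3) to 67.9 to 231 against 947 to 3763. All 5 fibroblast and all 8 macrophage markers were above the array median in captured cells, while 4 of 5 smooth muscle and 3 of 4 pancreatic acinar markers were below it. The part of these cell types in the differences below was not tested. Fewer cells of a type and less RNA per cell cannot be told apart in such bulk samples.

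**Figure D2:**
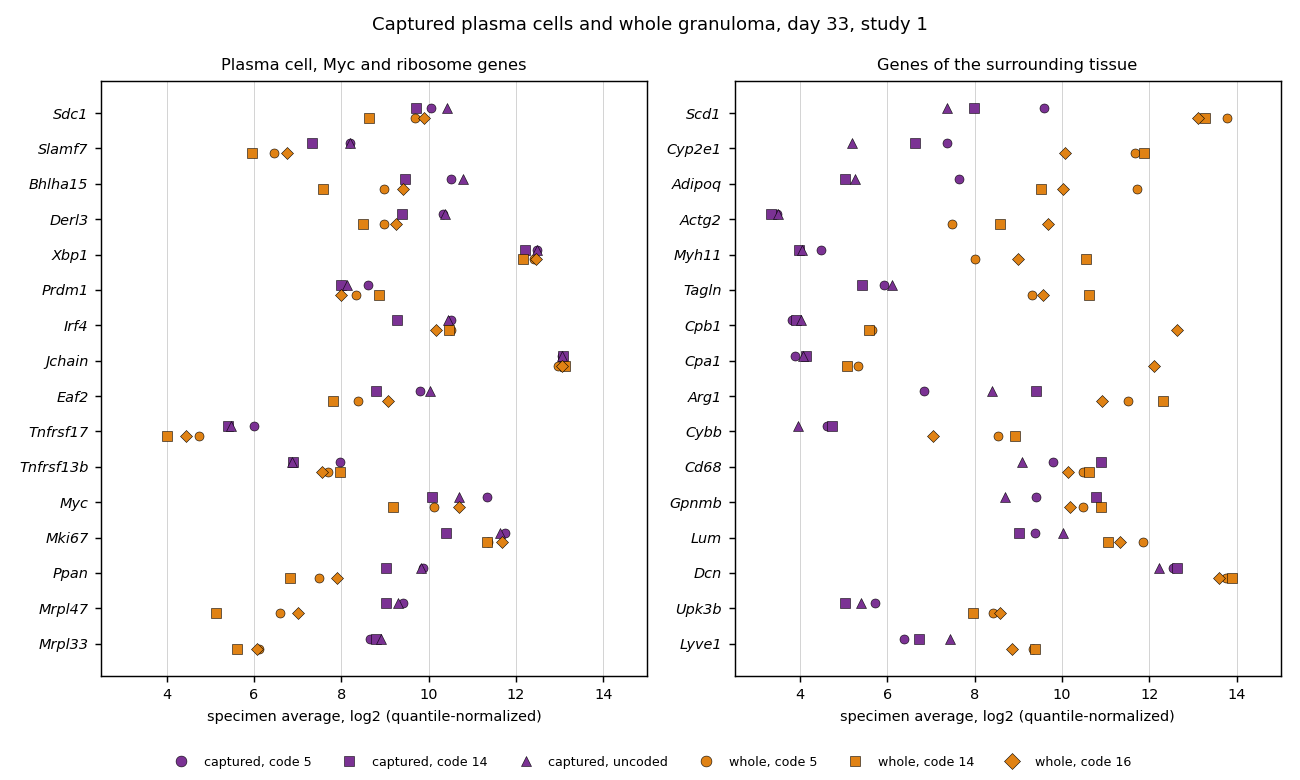
Specimen averages (log2, quantile-normalized) of 3 captured (purple) and 3 whole (orange) specimens for 32 genes; the marker shape gives the specimen code. Captured and whole values interleave for Xbp1, Irf4, Jchain and Mki67, are apart for Slamf7, Mrpl33 and Ppan, and are farthest apart for Scd1, Actg2 and Myh11.

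Immunoglobulins are the main product of plasma cells. Of 18 immunoglobulin genes tested, 2 were higher (Igk and Igll1) and 1 was lower (Ighg3). Igha was at 14.57 in all 6 averages, the top of the arrays' range, where differences could not be measured. Jchain, which links IgA and IgM units, lay between 12.95 and 13.11. Of 11 Ighm probe sets, 6 were over 10 in every specimen, and all 6 were lowest in code 14, in captured cells and in whole granuloma alike. The brightest was at 14.29, 12.87 and 14.29 in captured cells and 14.29, 13.91 and 14.29 in whole granuloma. Ighg3, the constant region of IgG3, was at 6.48, 11.93 and 6.55 in captured cells and 8.08, 13.67 and 13.94 in whole granuloma. Code 14 was high and code 5 low in both tissue types, and whole code 16 was as high as whole code 14. The other Ighg3 probe sets, all dimmer, did not show this order of codes 5 and 14 in both tissue types, so it rests on 1 probe set. The tissue difference was −3.43 (SE 1.31, adjusted p = 0.0378) and was lost without captured code 5, the uncoded captured array, whole code 14 or whole code 16 (adjusted p up to 0.196), with the 3' minus 5' covariate (adjusted p = 0.101), and with every probe set tested on its own (adjusted p = 0.0510).

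Some light chain variable genes were spread widely over the captured specimens. Igkv15-103 was at 9.80 in captured code 5, 4.45 in code 14 and 10.26 in the uncoded array, against 8.44, 6.82 and 7.84 in whole codes 5, 14 and 16. Igkv6-14 was highest in captured code 5 (11.13, against 7.87 and 8.32) and lay between 7.81 and 9.23 in whole granuloma. Igkv4-72 was highest in the uncoded captured array (9.19, against 6.68 and 5.51) and Igkv4-68 likewise (7.26, against 4.68 and 4.60). Each of these was a difference among captured specimens, and none passed the test between tissues. The span over 3 captured specimens was 5.81 for Igkv15-103 and 3.68 for Igkv4-72, against 1.62 and 1.47 over the whole specimens. Others had the narrower span in captured cells, such as Igkv8-30 (0.26 against 0.67) and Igkv14-111 (0.20 against 0.48). Igk, on the probe set that stood for the gene, was at 9.24, 8.66 and 10.00 against 7.74, 6.53 and 8.32, a called increase. Another Igk probe set was at 7.27, 9.25 and 11.36 against 7.81, 7.90 and 7.44 and did not pass. Near-identical variable genes can share a probe set, so the symbols name the probe set's annotation only.

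**Figure D3:**
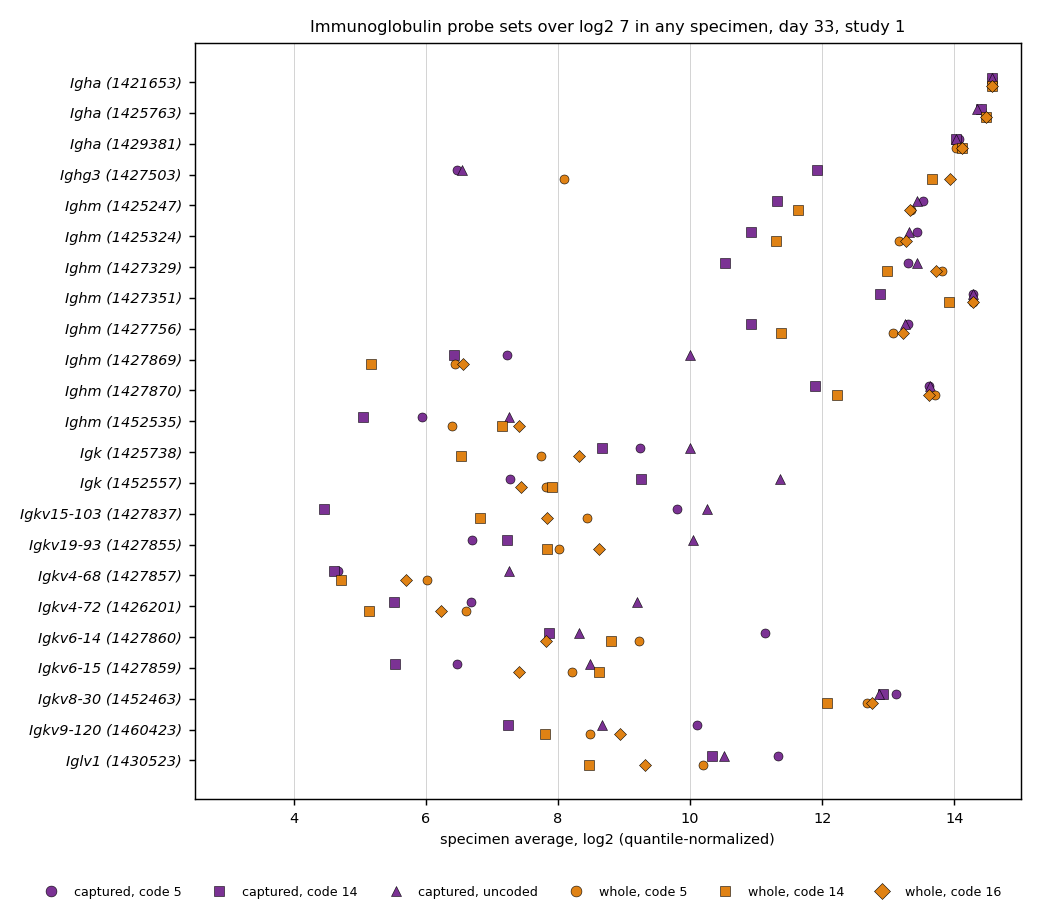
Immunoglobulin probe sets over log2 7 in any specimen, labelled by gene and probe set number, with 3 captured (purple) and 3 whole (orange) specimen averages. Code 14 (squares) is low for the bright Ighm probe sets and high for Ighg3 in both tissue types, and captured specimens are spread widely for Igkv15-103 and Igkv4-72.

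Myc itself did not differ past the threshold. Captured codes 5, 14 and uncoded stood at 11.34, 10.08 and 10.68 and whole codes 5, 14 and 16 at 10.12, 9.18 and 10.70 (difference 0.73, SE 0.36, adjusted p = 0.105). Within codes 5 and 14 the captured value was the higher one, but whole code 16 reached the captured range. Myc passed with codes 5 and 14 only and the code as a paired block (1.06, adjusted p = 0.0343), without whole code 16 (1.05, adjusted p = 0.0311) and without captured code 14 (1.02, adjusted p = 0.0452). Among the partners and antagonists of Myc, 2 of 9 were higher and 1 lower. Mxd3, which pairs with Max and is linked to the S phase, was at 7.23, 7.65 and 7.77 against 5.97, 5.84 and 5.86 (1.65, SE 0.28, adjusted p = 2.41e-05). Mxd4 was higher by 1.02, a call lost without the uncoded captured array or whole code 14 (adjusted p up to 0.213), on the deposited values (0.44, adjusted p = 0.284) and with the 3' minus 5' covariate (0.33, adjusted p = 0.540). Mga, a Max partner of Polycomb complexes, was lower (−0.89, SE 0.29) and lost its call without the same averages (adjusted p up to 0.121) and in the paired block (adjusted p = 0.158).

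Of 28 genes of ribosome production and growth that Myc drives, 7 were higher and none lower, with a median of 0.30; on the deposited values 1 was higher and 4 lower (median −0.22 against −0.62), and with the 3' minus 5' excess as a covariate 2 were higher and 2 lower (median −0.10). Ppan, needed to process large subunit RNA, was at 9.87, 9.01 and 9.82 in captured cells and 7.49, 6.82 and 7.89 in whole granuloma. Every captured specimen lay above every whole specimen, and the difference was 2.18 (SE 0.31, 4.52-fold, adjusted p = 1.92e-06). Cad, which starts pyrimidine synthesis, differed by 1.53, Mybbp1a, a nucleolar Myb-binding protein, by 1.34 and Nolc1, a nucleolar chaperone, by 1.16. Cad lost its call without captured code 5 or whole code 14, Mybbp1a without whole code 14 and Nolc1 without captured or whole code 5 (adjusted p up to 0.0769, 0.0769 and 0.109). None of the 3 passed on the deposited values or with the covariate, where they stood between 0.61 and 0.63. Another Cad probe set was at 0.45 and another Mybbp1a probe set at −0.41, and neither passed. Other Nolc1 probe sets were at 1.57, which passed, and at −0.05, which did not. Without captured code 14 the count was 11 of 28, and without captured code 5 or whole code 14 it was 3.

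Promoters of this list are shown because the canonical Myc site is the letters CACGTG, which read alike on both strands. RefSeq promoters (build GRCm38.p6) were matched for 22 members by symbol, and the 250 bases before a start held the site in 5 of them (22.7%), against 6.86% of all genes in the table and 9.98% of the genes tested. The 5 were Ldha, Nop2, Cdk4, Eif4e and Hspd1, and none of these passed the test. Nop2, a ribosomal RNA methylase chosen here after its values were seen, differed by 0.84 (SE 0.37, adjusted p = 0.0695). Its stretch lies at chr6:125131803-125131848 on the plus strand, with the site in capitals:
Nop2: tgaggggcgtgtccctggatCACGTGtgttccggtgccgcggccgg

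Proliferation genes gave a mixed picture. Of 26 cell cycle genes, 3 were higher and 1 lower (median 0.40); on the deposited values 1 was higher and 5 lower (median −0.31), and with the 3' minus 5' covariate limma called none, with 3 at an unadjusted p under 0.05. Mki67, the common proliferation marker, was at 11.74, 10.41 and 11.62 against 11.36, 11.33 and 11.67, with captured code 14 lowest. Birc5, a mitotic survival factor, was at 8.79, 7.13 and 8.24 against 6.54, 5.52 and 7.08 (1.70, SE 0.41, adjusted p = 0.00163), and with the covariate at 0.91 (adjusted p = 0.116). Mcm3, part of the replicative helicase, was higher by 1.24 (adjusted p = 0.000968), and was at 0.42 on the deposited values (adjusted p = 0.254). Ube2c, which feeds the anaphase complex, was higher by 1.29 and lost its call without captured code 5, the uncoded array or whole code 14 (adjusted p up to 0.0879), and on the deposited values (adjusted p = 0.252). Aurkb, the chromosomal passenger kinase, was at −0.88, and without captured code 14 it was at −0.26 (adjusted p = 0.564); its call was also lost without whole code 5 or 16 and without the second array of code 14 (adjusted p = 0.221), and in the paired block (adjusted p = 0.123). Captured code 14 had the lowest value of the captured specimens for all 5 of these genes, and without it 5 of the list were higher and none lower.

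Mitochondrial ribosomal proteins were the list most often higher in captured cells. Of 20 tested, 12 were higher and 1 lower, with a median of 0.98 against 0.04 for all genes; the deposited values gave 4 higher and 2 lower (median 0.19 against −0.62), and the 3' minus 5' covariate 5 higher and none lower. Captured averages lay above all whole averages for 16 of 20, against 26.5% of all genes. Mrpl47, of the large subunit, was at 9.41, 9.02 and 9.29 in captured codes 5, 14 and uncoded and at 6.58, 5.13 and 7.00 in whole codes 5, 14 and 16. This was the largest increase of any tested gene with separated groups, 3.03 (SE 0.36, 8.15-fold, adjusted p = 8.54e-08). Mrpl33 followed with 8.66, 8.79 and 8.90 against 6.11, 5.60 and 6.06 (2.86, SE 0.22, adjusted p = 8.09e-12), with a narrow range in each tissue. Mrpl34 differed by 2.08 (SE 0.42) and Mrpl44 by 1.85 (SE 0.42), the latter at 0.92 with the covariate (adjusted p = 0.101). Of 10 proteins of cytosolic ribosomes 0 passed in limma, 0 at an unadjusted p under 0.05, with a median of −0.08; with the covariate 3 were lower (median −0.63), and with median centring 1 was higher (median 0.62).

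A search for the site of NRF1, a factor of nuclear genes for mitochondria, used the letters GCGCA and GCGC with any 1 base between them, on both strands, a site that cannot contain the Myc site. The NRF1 site stood in 7 of the 22 promoters of ribosome production and growth genes (31.8%), so it was not particular to mitochondrial genes. The Myc site stood in 2 of 17 mitochondrial promoters (11.8%). Of 17 mitochondrial members with a RefSeq promoter, 3 held the NRF1 site (17.6%), against 4.23% of all genes in the table and 9.81% of those tested. One of them, Mrpl44, was higher and another, Mrpl9, was the list's only decrease (−0.81, SE 0.27, adjusted p = 0.0167); Mrpl9 was chosen after its values were seen. Their stretches lie at chr1:79775963-79776012 and chr3:94443288-94443335, both on the plus strand, with the match in capitals:
Mrpl44: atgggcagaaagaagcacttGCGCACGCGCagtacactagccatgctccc
Mrpl9: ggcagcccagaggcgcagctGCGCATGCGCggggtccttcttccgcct

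Of 18 respiratory chain genes tested, 4 were higher and 2 lower (median 0.45), shares not far from those of all genes. With the covariate 2 were higher and 3 lower (median −0.26), and without whole code 14 none was higher, without captured code 5 or the uncoded array 2 were. Sdha, a succinate dehydrogenase subunit, was at 9.95, 9.50 and 9.99 against 10.85, 11.37 and 10.54 (−1.13, SE 0.26, adjusted p = 0.00103). Another Sdha probe set had means of 10.13 and 10.15 and did not pass. Atp5b, the catalytic subunit of ATP synthase, was at −1.14 and lost its call without captured code 14 (−0.77, adjusted p = 0.0667). With median centring Atp5b was at −0.70 and did not pass (adjusted p = 0.146). Cox5a of cytochrome oxidase was higher by 1.08 and Ndufb5 of complex I by 0.85, and both lost their calls without whole code 14 (0.80 and 0.55, adjusted p 0.0735 and 0.110), as Cox5a did with the covariate (adjusted p = 0.181) and Ndufb5 on the deposited values (adjusted p = 0.372). Aldoa, the only called gene of 11 in glycolysis, was at −0.88 and lost its call without captured or whole code 5 or whole code 14 (adjusted p up to 0.0745).

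Few secretory stress genes passed. Of 30 genes for protein folding, its stress response and export, 2 were higher and 1 lower, with a median of 0.04, and with the 3' minus 5' covariate none was higher and 6 were lower. Syvn1, a ubiquitin ligase of the endoplasmic reticulum, was at 9.55, 8.63 and 9.38 against 7.75, 6.97 and 8.26 (1.54, SE 0.37, adjusted p = 0.00133). Pdia3, a folding enzyme, was at 9.50, 8.28 and 8.19 against 10.17, 10.17 and 10.02 (−1.45, SE 0.41, adjusted p = 0.00542). Neither pair of groups overlapped, and Syvn1 did not pass on the deposited values (0.80, adjusted p = 0.0666) or with the covariate (1.02, adjusted p = 0.0601). Atf4, a stress transcription factor, was higher by 0.69 and lost its call without captured code 5, the uncoded array, whole code 5 or whole code 14 (adjusted p up to 0.115); on the deposited values it was at 0.09, in the paired block its adjusted p was 0.116, and with the covariate 0.208. Another Atf4 probe set was higher by 2.38 (adjusted p = 1.34e-05).

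Cell death genes were called in both directions. Of 11 members of the Bcl2 family, 3 were higher and 1 lower. Captured averages lay above all whole averages for 4 of 11 and below them for 3, against 26.5% and 22.8% of all genes. Bcl2, the founding survival gene, was at 5.12, 5.43 and 5.68 in captured cells and 6.46, 7.09 and 5.96 in whole granuloma (−1.13, SE 0.24, adjusted p = 0.000488). Bbc3, a killer protein under p53, was at 7.02, 6.97 and 6.37 against 5.42, 5.45 and 5.78 (1.26, SE 0.27, adjusted p = 0.000368), and at 0.51 on the deposited values (adjusted p = 0.0660). Bik, another killer protein, was higher by 1.18 (SE 0.21) and Bid by 0.94, the latter lost without whole code 14 (adjusted p = 0.0604), on the deposited values (adjusted p = 0.410) and with the covariate (adjusted p = 0.0565). Fas, the death receptor, was at 4.34, 4.71 and 4.45 against 6.41, 6.57 and 6.51 (−1.99, SE 0.22, 3.98-fold lower, adjusted p = 2.39e-08). Within the p53 list of 11, 2 were higher and 5 lower, among them Sesn1, a stress-induced growth inhibitor (−1.41, SE 0.29, adjusted p = 0.000279), and Gadd45a (−1.36), a growth arrest gene whose call was lost without captured code 5, the uncoded array or whole code 5 or 14 (adjusted p up to 0.347), with the covariate (adjusted p = 0.211) and without the replicate block (adjusted p = 0.0651). Without captured code 5, whole code 5 or whole code 14, 3 of the list were lower. A Sesn1 probe set with means of 8.87 and 8.65 did not pass (0.21), while a further one was at −1.37 and passed.

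In the interleukin 6 pathway the ligand did not pass, and of the receptor chains Il6ra was higher and Il6st lower. Il6 was at 4.24, 4.95 and 5.59 in captured cells and 5.41, 6.25 and 6.40 in whole granuloma (−1.11, SE 0.67, adjusted p = 0.193), overlapping ranges. With codes 5 and 14 only and the code as a paired block it passed (−1.24, adjusted p = 0.0171), as it did with these 6 averages alone (adjusted p = 0.0305) and on the deposited values (−1.68, adjusted p = 0.0238). Il6ra, the ligand-binding chain, was at 6.52, 7.30 and 6.02 against 5.37, 5.68 and 5.35 (1.17, SE 0.41, adjusted p = 0.0227), and a further probe set gave 1.02. Il6st, the signalling chain, was at −0.81 (SE 0.29), Jak1, its kinase, at −0.94 (SE 0.37) and Stat3, its transcription factor, at −0.86 (SE 0.24). Another Stat3 probe set was higher by 1.82 (adjusted p = 3.86e-12), so the direction for Stat3 depends on the probe set. Calls were lost for Il6ra without captured code 14 (also without its second array alone, adjusted p = 0.0506), whole code 5 or whole code 16, for Stat3 without the uncoded array, for Il6st without code 5 or whole code 14 or the uncoded array, and for Jak1 without any 1 average other than captured code 14 (adjusted p up to 0.158, 0.0520, 0.177 and 0.219). Il6ra also did not pass on the deposited values (0.43, adjusted p = 0.386) or with the covariate (adjusted p = 0.110), and Jak1 not with the covariate (adjusted p = 0.0835) or without the replicate block (adjusted p = 0.0530). In the paired block Jak1, Stat3 and Il6st did not pass (adjusted p 0.162, 0.126 and 0.102). In all, 2 of 17 pathway genes were higher, Il6ra and Tyk2, and 3 lower, and without the uncoded array 3 were higher and none lower.

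NF-kB genes likewise split. Nfkb2, the precursor of the alternative pathway's subunit, was at 6.49, 6.98 and 7.21 against 5.46, 5.58 and 5.90 (1.24, SE 0.19, adjusted p = 5.37e-06). Nfkbiz, a nuclear regulator of inflammatory genes, was at 7.15, 7.89 and 7.67 against 8.56, 9.83 and 8.62 (−1.45, SE 0.34, adjusted p = 0.00104). Both had separated groups. Another Nfkbiz probe set was at 0.41 and did not pass. Nfkbie, an inhibitor, was at −0.94 and lost its call without whole code 5 (adjusted p = 0.0555), in the paired block (adjusted p = 0.0798) and with the covariate (adjusted p = 0.0939). Of 10 tested, 1 was higher and 2 were lower.

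Several of the largest increases belong to no list. Aqp8, a channel for water and hydrogen peroxide, was at 6.64, 6.82 and 7.53 in captured cells and 4.49, 4.44 and 4.65 in whole granuloma (2.46, SE 0.22, 5.50-fold, adjusted p = 2.01e-10). Kmt2e, a chromatin protein, was higher by 2.52 (SE 0.28) and Gnl2, a nucleolar GTPase, by 2.54 (SE 0.36). Separated groups were a condition for naming genes by the size of their increase. Tes3-ps, a pseudogene, and Bcl2l15, a distant Bcl2 relative, were higher by 2.48 and 2.42. Another Kmt2e probe set had means of 9.07 and 9.06. Other Gnl2 probe sets were at 0.71, which passed, and at 0.33, which did not. Malat1, a nuclear RNA, was at 13.39, 13.28 and 12.09 against 10.84, 9.71 and 10.60 (2.58, SE 0.56, adjusted p = 0.000473), but another Malat1 probe set passed in the opposite direction (−0.87, adjusted p = 0.0158). The remaining Malat1 probe sets did not pass, with means of 11.29 and 11.32 for the brightest and differences of 0.58 and −1.10 for the others.

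Over members tested, the adipocyte list had the lowest median difference of the gene lists. Of 15 adipocyte genes, 12 were lower and none higher, with a median of −3.05 on the log2 scale. Scd1, the desaturase of fatty acid synthesis, was at 9.59, 7.97 and 7.36 in captured cells and 13.78, 13.27 and 13.12 in whole granuloma. The difference was −5.06 (SE 0.84, 33.3-fold lower, adjusted p = 1.69e-05). Adipoq, the adipocyte hormone adiponectin, was at 7.63, 5.02 and 5.25 against 11.72, 9.52 and 10.01 (−4.44, SE 1.26, adjusted p = 0.00598). Its 2 arrays of captured code 14 differed, at 3.55 and 6.50. Cyp2e1, an oxidase of fat and liver, differed by −4.81 (SE 1.20), and Thrsp, which supports lipid synthesis, by −4.05 (SE 1.19), the latter lost without the uncoded array or whole code 5 (adjusted p up to 0.0711) and with the 3' minus 5' covariate (adjusted p = 0.0834). With that covariate 7 of the list were lower, and Adipoq did not pass (−3.55, adjusted p = 0.0687).

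Of 12 smooth muscle genes tested, 9 were lower and none higher (median −2.70), with 6 lower without captured code 5, the uncoded array, whole code 14 or whole code 16. Captured averages lay below all whole averages for 12 of 12, against 22.8% of all genes. Actg2, the actin of gut muscle, was at 3.47, 3.33 and 3.50 in captured cells, near the floor of the arrays, and at 7.49, 8.58 and 9.68 in whole granuloma (−5.11, SE 1.15, adjusted p = 0.000746). Myh11, the smooth muscle myosin, was at 4.49, 3.96 and 4.04 against 8.00, 10.55 and 8.99 (−5.02, SE 0.87). Mylk, the myosin light chain kinase, differed by −4.32 and Tagln, an actin-binding protein, by −4.04. Serum response factor binds the CArG box of many of these genes; in its strict form the box was found in the 250 bases before the start of 1 of 10 members with a promoter, Myl9, against 1.62% of all genes in the table and 1.51% of those tested. Myl9, a regulatory light chain of myosin chosen after its values were seen, differed by −3.34 (SE 0.97, adjusted p = 0.00703). The stretch lies at chr2:156775283-156775332 on the plus strand, with the box in capitals:
Myl9: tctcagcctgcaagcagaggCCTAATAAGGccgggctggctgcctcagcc

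Pancreatic genes were high in 1 whole specimen. Cpb1, a carboxypeptidase of acinar cells, was at 3.82, 3.91 and 4.02 in captured cells and at 5.66, 5.58 and 12.64 in whole codes 5, 14 and 16. Cpa1 was at 5.32, 5.07 and 12.10, Ctrb1 at 5.74, 4.98 and 11.66 and Cela1 at 7.21, 7.50 and 11.94 in the same whole specimens. Of the 3 whole specimens code 16 was the high one for each of these genes. Of 10 acinar genes, 5 were lower, and without whole code 16 limma called 0, with 0 at an unadjusted p under 0.05 (list median −0.53 in place of −2.18). The Cpb1 difference was then −1.71 with an adjusted p of 0.169, in place of −3.87 and 0.00649. Amy1, an amylase, was not highest in code 16, at 8.94, 8.99 and 7.38 in whole and 3.45, 3.56 and 3.05 in captured specimens (−5.11, SE 0.80, adjusted p = 6.27e-06); its captured values, like those of Actg2, lie near the arrays' floor. Ces1d, a carboxylesterase of fat and liver, was at 4.61, 4.36 and 3.82 against 9.42, 8.87 and 7.73 (−4.43, SE 0.60), and Plagl1, an imprinted zinc finger factor, differed by −4.55 (SE 0.57).

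Macrophage genes were partly lower in captured cells. Of 28 tested, 12 were lower and none higher, with a median of −0.89. Without captured code 14 the count was 16; it was 7 without captured code 5 or whole code 14, 6 without the uncoded array and 5 without whole code 5, and with median centring 8 were lower and 2 higher. Cybb, the phagocyte oxidase, was at 4.62, 4.74 and 3.96 in captured cells and 8.53, 8.92 and 7.03 in whole granuloma (−3.74, SE 0.71, 13.4-fold lower, adjusted p = 0.000105). Fcgr1, an Fc receptor, was at 6.05, 7.43 and 6.09 against 8.10, 9.04 and 7.90 (−1.82, SE 0.43). Ctsl, a lysosomal protease, was at 11.55, 12.42 and 10.74 against 13.18, 13.56 and 12.84 (−1.61, SE 0.41). With median centring Ctsl was at −0.97 and did not pass (adjusted p = 0.0782). Captured code 14 was the highest captured specimen for each of these 3 genes.

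Other macrophage genes overlapped between the tissues. Cd68, a lysosomal membrane protein, was at 9.79, 10.89 and 9.09 against 10.48, 10.62 and 10.14 (−0.47, SE 0.53), and Gpnmb, a marker of lipid-laden macrophages, at 9.41, 10.77 and 8.69 against 10.48, 10.90 and 10.18 (−0.88, SE 0.48). Gpnmb passed without captured code 14 (−1.46, adjusted p = 0.0271) and on the deposited values (−1.33, adjusted p = 0.0171). Captured code 14 lay within the whole range or above it for both. Arg1, which consumes arginine in alternatively activated macrophages, was at 6.83, 9.39 and 8.40 against 11.51, 12.31 and 10.92 (−3.41, SE 0.78, adjusted p = 0.000818). Mrc1, the mannose receptor, was at −0.99 and lost its call without any 1 average other than captured code 14 (adjusted p up to 0.0976) and in the paired block (adjusted p = 0.0697). Msr1, a scavenger receptor, was at −1.67 and lost its call without whole code 14 (−1.29, adjusted p = 0.0600). Its other probe sets were at −1.08, which passed, and at −0.04 and 0.48, which did not. Il4ra, the receptor for the activating cytokine, was higher by 0.71 on its brightest probe set, at −0.10 on the deposited values, and at −0.66 on another probe set that passed, and so has no settled direction; the call was also lost without captured code 14, whole code 5 or whole code 14 (adjusted p up to 0.178), in the paired block (adjusted p = 0.101) and with the covariate (adjusted p = 0.0676).

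Stromal genes were abundant in captured cells too. Of 24 fibroblast genes, 5 were lower (median −0.77), near the background share of 17.1%, and 3 without whole code 5; 14 had captured averages below all whole averages, against 22.8% of all genes. Lum, a collagen-binding proteoglycan, was at 9.39, 9.01 and 10.01 against 11.86, 11.04 and 11.33 (−1.96, SE 0.38, adjusted p = 0.000143). Dcn, a related proteoglycan, was at 12.54, 12.63 and 12.22 against 13.74, 13.89 and 13.59 (−1.27, SE 0.44), a call lost without the uncoded array, whole code 5 or whole code 14 (adjusted p up to 0.0796). With median centring Dcn was at −0.52 and did not pass (adjusted p = 0.351). Col6a3, a collagen chain, differed by −1.59 (SE 0.44) and Fap, a protease of activated fibroblasts, by −1.17 (SE 0.35), the latter at −0.72 with the 3' minus 5' covariate (adjusted p = 0.171). Of 12 matrix remodelling genes 4 were lower, 1 without captured or whole code 5, 2 without the uncoded array and none without whole code 14 (5 at an unadjusted p under 0.05). They were led by Mmp12, the macrophage elastase (−1.84, SE 0.68), which lost its call without captured code 14, the uncoded array, whole code 5 or whole code 14 (adjusted p up to 0.204), without the second array of code 14 (adjusted p = 0.0601) and with the covariate (−0.74, adjusted p = 0.487).

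Of 17 endothelial genes 4 were lower, and 2 without captured code 5, whole code 5 or whole code 14. Lyve1, of lymphatic vessels and some macrophages, was at 6.38, 6.73 and 7.43 against 9.33, 9.39 and 8.84 (−2.37, SE 0.59, adjusted p = 0.00192). Pecam1, of all endothelium, differed by −1.01 and lost its call without whole code 14 (−0.76, adjusted p = 0.106) and with the covariate (−0.65, adjusted p = 0.165). Of 10 mesothelial genes 2 were lower: Upk3b at 5.72, 5.04 and 5.39 against 8.41, 7.97 and 8.57 (−2.93, SE 0.58, adjusted p = 0.000176), and Krt19, a keratin, by −2.50 (SE 0.57). Both mesothelial genes had groups far apart.

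Complement genes, made by macrophages and stroma, were lower in 4 of 12 cases and higher in none. Cfb, factor B of the alternative pathway, was at 8.09, 8.65 and 7.79 against 10.48, 11.49 and 9.93 (−2.47, SE 0.41, adjusted p = 1.58e-05), and C1s1, a protease of the classical pathway, at 10.02, 9.97 and 10.31 against 12.10, 13.44 and 11.68 (−2.35, SE 0.43). Every captured specimen was below every whole specimen for both. Of 17 lipid handling genes 5 were lower, and 3 without whole code 14, including Cd36, a fatty acid receptor (−2.60, SE 0.56), and Apoe, the lipoprotein of macrophages (−1.77, SE 0.49). With median centring Apoe was at −1.13 and did not pass (adjusted p = 0.0611). Of 22 cytokine and chemokine genes 3 were lower and 1, Il18, higher (1.15, SE 0.37), a call lost without captured or whole code 14 (adjusted p up to 0.125), on the deposited values (adjusted p = 0.473) and with the covariate (adjusted p = 0.0949). Without captured code 14, 6 were lower and none higher. Il1b was at 5.54, 6.37 and 6.17 against 8.58, 7.99 and 7.47 (−2.01, SE 0.45, adjusted p = 0.00076), and Il1rn, its receptor antagonist, was at −2.10 (SE 0.52), and at −1.45 with the covariate (adjusted p = 0.0635). Cxcl2, a neutrophil attractant, was at −2.65 and lost its call without captured or whole code 5 (adjusted p up to 0.117) and with the covariate (−1.20, adjusted p = 0.348).

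Counts of interferon and immediate early calls changed with the specimen left out, though Klf6 kept its call each time. Of 15 interferon genes 5 were lower (median −0.58) and 1, Mx1, higher. The lower count was 1 without the uncoded captured array or whole code 14, and 2 without captured code 5, without whole code 5 or without the replicate block. Ifit2, which restrains viral translation, was at 4.57, 4.96 and 4.25 against 6.03, 7.94 and 5.88 (−2.04, SE 0.52, adjusted p = 0.00234), with whole code 14 highest, and its call was lost without that specimen (−1.36, adjusted p = 0.0689). Of 17 immediate early genes 5 were lower and 1, Egr3, higher; 1 was lower without captured code 5, 2 without the uncoded array or whole code 14 and 3 without whole code 5. Mx1, Egr3 and Tyk2 were named after their values were seen. Fos was at 7.42, 8.88 and 8.42 against 9.51, 10.88 and 9.83 (−1.85, SE 0.60), a call lost without captured code 5 or whole code 14 (adjusted p up to 0.113) and with the covariate (−1.25, adjusted p = 0.174). Klf6 differed by −1.87 (SE 0.43), while another of its probe sets passed in the opposite direction (0.97, adjusted p = 0.00135).

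Niche genes gave 1 increase and 2 decreases of 13. Itgb1, an integrin that ties plasma cells to stroma, was at 6.64, 7.26 and 6.21 against 9.00, 10.57 and 8.16 (−2.56, SE 0.52, adjusted p = 0.000235). Igf1, a plasma cell growth factor, differed by −1.29 and lost its call without captured code 14 or whole code 5 (adjusted p up to 0.0726). Other Igf1 probe sets were at −0.54 and −0.35 and did not pass. Cd80, a costimulator, was at 5.23, 5.69 and 4.75 against 4.36, 4.27 and 4.27 (0.94, SE 0.24, adjusted p = 0.00268), and did not pass on the deposited values (adjusted p = 0.0587) or with the covariate (adjusted p = 0.0865).

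Few lymphoid and other myeloid genes passed. Of 12 B cell genes 1 passed, Vpreb3 of the B lineage, at 5.35, 5.25 and 5.89 against 4.54, 4.46 and 4.71 (0.92, SE 0.23, adjusted p = 0.00162). Of 11 T and NK cell genes 1 passed, Zap70, a T cell receptor kinase, at 1.12 (SE 0.27), and Cd3e did not (0.35, SE 0.24). Another Zap70 probe set had a mean of 4.15 in both tissue types and did not pass. Vpreb3 and Zap70 did not pass in the paired block (adjusted p 0.0870 and 0.0547), and on the deposited values they were at 0.43 and 0.28 and did not pass. Of 9 genes of MHC class II 0 passed in limma, 0 at an unadjusted p under 0.05 (median 0.03). Of 13 neutrophil genes 2 were lower, Lcn2 at 5.27, 6.31 and 5.14 against 7.49, 7.52 and 7.54 (−1.93, SE 0.58, adjusted p = 0.00926), and Prtn3, a granule protease (−1.16, SE 0.31), while neutrophil markers summed to 1910 to 7301 in captured and 1337 to 2468 in whole specimens. Batf3 and Zbtb46, factors of dendritic cells, were higher by 0.78 and 0.60, and both lost their calls without captured code 14 or whole code 16, Batf3 also without the uncoded array or whole code 5 or 14 (adjusted p up to 0.173 and 0.146), and neither passed in the paired block (adjusted p 0.195 and 0.163) or on the deposited values (adjusted p 0.411 and 0.535). Kit, the stem cell factor receptor of mast cells, was 1.99-fold lower (adjusted p = 0.00564), with an adjusted p of 0.0935 with the covariate.

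The second cohort, study 2, had 6 captured arrays of 3 specimens and 3 whole arrays of 3 specimens at day 33, under the same strain and treatment, and the test of the difference between the cohorts used the same fit. In study 2, 2062 genes were higher (23.9%) and 1773 lower (20.6%). Higher in both were 762, which is 47.8% of the study 1 genes and 37.0% of the study 2 genes, and lower in both were 724, 49.3% and 40.8%. Opposite calls were made for 96 and 68 genes. The difference between captured and whole tissue itself differed between the studies for 1585 genes (18.4%), 784 toward a higher value in study 1 and 801 toward a lower one. The 3' minus 5' excess of whole granuloma was 1.47 ± 0.014 (SD over 3 arrays) in study 2, against 3.07 in study 1, and that of captured cells 4.51 ± 0.32 (SD over 6 arrays); its part in the differences between studies was not tested.

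Some genes had like differences in both studies, and others went apart. Scd1 was at −4.89 in study 2 against −5.06 in study 1 and Actg2 at −5.08 against −5.11. Slamf7 was at 1.59 against 1.52. Aqp8, 5.50-fold higher in study 1, was at −0.40 in study 2 (difference 2.85, adjusted p = 6.76e-08). Fas, lower in study 1, was at 0.43 in study 2 (−2.43, adjusted p = 9.74e-07). Bik differed by 1.34 between the studies (adjusted p = 0.00106), Derl3 by 1.73 (0.0237), Il1b by −2.17 (0.0142) and Mrc1 by −1.69 (0.0182).

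For 8 of 18 immunoglobulin genes the captured minus whole difference differed between the studies, always toward a higher difference in study 1. Among them in the limma fit were Igkv15-103 (4.72, adjusted p = 0.00971) and Igkv9-120 (4.45, adjusted p = 0.00321). Of the 6 genes named for the largest differences with immunoglobulins left out, 4 did not pass in study 1. Slc6a6, a taurine carrier, was at 7.78, 8.69 and 6.18 in captured cells and 7.99, 8.73 and 7.08 in whole granuloma of study 1 (−0.37, SE 0.56), and at −4.65 in study 2 (difference 4.28, adjusted p = 0.000172). Rraga, a GTPase of nutrient sensing, was at −0.09 against −4.16 and Snd1, an RNA-binding nuclease, at 0.92 against −3.24. Aplnr, the apelin receptor, was at 1.07 against −2.68. In study 1 Snd1 and Aplnr passed in the paired block (adjusted p 0.0303 and 0.0243), and Snd1 also without the uncoded array (1.37, adjusted p = 0.0289). Serpinb6b, a protease inhibitor, was at 4.80, 5.23 and 4.90 against 7.10, 7.09 and 7.61 in study 1 (−2.27, SE 0.56, adjusted p = 0.00178) and higher by 1.67 in study 2 (difference −3.95, adjusted p = 0.000479). Cpa1, with its 1 high whole specimen, differed by −3.70 (adjusted p = 0.0490).

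**Figure D4:**
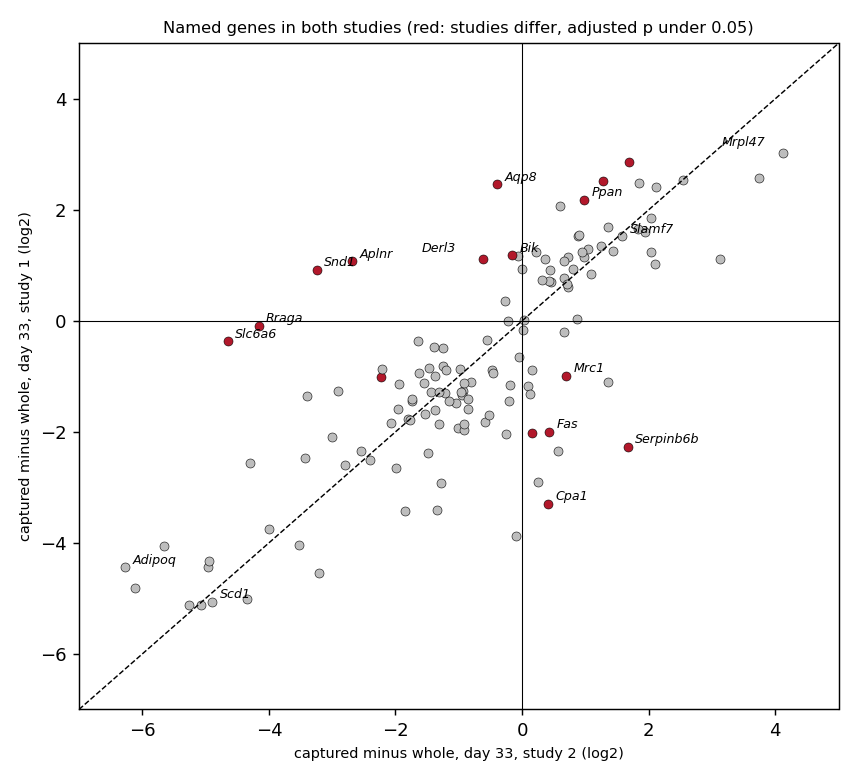
Captured minus whole difference (log2) at day 33 for the named genes, study 2 on the x axis and study 1 on the y axis; each point is 1 gene, the dashed line marks equality, and red points differ between the studies at an adjusted p under 0.05. Scd1 and Adipoq lie low in both, Aqp8 is high in study 1 alone, and Slc6a6, Rraga and Snd1 are low in study 2 alone.

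Against the earlier days of study 1, day 33 showed no difference that passed. The contrast of day 33 with the mean of days 7 and 17 (10 captured and 6 whole arrays) found 0 of 8614 genes (0%) in limma, with 285 at an unadjusted p under 0.05. That is fewer than such a cut gives by chance on average. The arrays of the earlier days came from 4 captured and 2 whole specimens on each day. The 2 captured arrays of code 5 of day 7 had opposite sex-linked transcripts, with Xist at 12.05 and 5.53, and without them the count was also 0, with 322 at an unadjusted p under 0.05. Mrpl47 was at 2.79 on the earlier days against 3.03, Scd1 at −5.33 against −5.06, Actg2 at −5.58 against −5.11 and Slamf7 at 1.54 against 1.52. Aqp8 was at 2.08 and Fas at −2.60 on those days, each on the side of day 33 of study 1. A p that misses the threshold does not show that the days were alike.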

How the data were processed

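Affymetrix arrays measured expression in the 82 samples. The authors deposited 1 table of log2 values, per the submitters' processing notes with Partek and RMA (versions: not given in the sources used here). Of 22690 probe sets, 20380 had 1 gene symbol, 691 several and 1555 none listed, and 64 were controls. The probe set with the highest mean stood for a gene (12393 genes). Arrays that share a code and a tissue type were averaged (53 averages, 33 codes, 19 groups of study, tissue type and day), after quantile normalization over all 82 arrays. A gene was tested when above the array median in at least 3 averages (8614 genes).

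All groups entered 1 fit with limma 3.58.1 in R 4.3.3 (34 residual degrees of freedom) and a random replicate block by code (correlation 0.111) and Benjamini-Hochberg adjustment over all genes tested. Captured and whole averages of 1 code deviated together weakly (correlation 0.038 for code 5 and 0.27 for code 14; over 19 codes the median was 0.17, and 12 were over 0.1), and the shared code is the specimen number in the titles. The 3' minus 5' covariate was the mean over actin and Gapdh control probe sets. The script was tested on simulated data. The number of arrays limits the precision.

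The contrast, the 39 gene lists and the genes named outside them were chosen with earlier results of these data known. Named by rule were the 8 largest increases and 8 largest decreases with separated groups, from each list up to 4 called members by size of change, a set of plasma cell, macrophage and tissue genes whatever their values, and the 6 largest differences in each other contrast; genes outside it are said to be so or stand in counts. Ighg1 was to be named but had no probe set with 1 symbol. Motifs were counted in RefSeq promoters, a gene counting once if any of its promoters held the motif.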

Additional observations from a re-analysis of the deposited data

Results flagged for a closer look

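The count of genes whose captured minus whole difference differed between the studies at day 33 was 1585, by an interaction in the limma fit. A positive difference between studies means a higher captured minus whole difference in study 1, not a higher captured level. Among the named genes the difference between studies (study 1 minus study 2, log2) was 1.18 for Mrpl33, 1.24 for Kmt2e, 2.85 for Aqp8, 1.73 for Derl3, 1.19 for Ppan and 1.34 for Bik. It was also positive for Pecam1 (1.23), Slc6a6 (4.28), Snd1 (4.16), Rraga (4.07) and Aplnr (3.75). It was −1.69 for Mrc1, −3.70 for Cpa1, −2.17 for Il1b, −2.43 for Fas and −3.95 for Serpinb6b. All had an adjusted p under 0.05 for the interaction.

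Over the 5 captured arrays, which come from 3 specimens, the second array of code 14 lay apart from the rest in deposited median (5.11, against 5.05 to 5.07, with a gap of 0.781 of the range) and in Mrpl47 (8.58, against 9.29 to 9.46, gap 0.809 of the range). Chance gives about 1 such gap in 20 groups of 5 independent values. Many array quantities were screened for such gaps, so that rate does not hold here. Both arrays of a specimen share its tissue, so the 5 values are not independent.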

How the results depend on the processing

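Main counts were 1595 higher and 1469 lower genes for captured against whole granuloma, 1585 for the difference between the studies and 0 for day 33 against days 7 and 17. On the values as deposited they were 307, 4039, 3831 and 0, and with every probe set on its own 3597, 3003 and 3860 of 20380 probe sets. The 3' minus 5' covariate gave 1048 higher genes and ended 39 of the calls on named genes, and study 1 alone gave 2400. Median centring ended 14 calls on named genes, among them Ctsl, Apoe, Dcn, Atp5b, Il6st, Aurkb, Mrc1, Aldoa, Gadd45a and Ighg3. The replicate block as a fixed term, with codes 5 and 14 only and 1 residual degree of freedom, gave 948 higher and 1112 lower genes; without the replicate block there were 1490 and 1375. Leaving out 1 specimen average gave 964 to 1530 higher and 940 to 1376 lower genes, 1253 to 1422 for the difference between studies and 0 for the days. The days gave 0 under all 17 alternatives, with 123 to 933 genes at an unadjusted p under 0.05. The alternatives without the second array of code 14 and without code 5 of day 7 were chosen after seeing the data; the first gave 1654 and 1518 and the second 0. Of 115 named genes called, 45 kept their call under every alternative run on them and 61 whenever 1 average was left out. Il4ra reversed on the deposited values (−0.10, adjusted p = 0.771, in place of 0.71), and the cause was not tested. Values near the arrays' floor limit the sizes of Actg2 and Amy1, and values at their ceiling those of Igha and Ighm.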
